A study of Mus musculus with 3 samples.

Results

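Collagen is made in the endoplasmic reticulum by a set of enzymes and chaperones that hydroxylate, fold and later crosslink its chains, and 10 genes of this machinery are described here in mouse embryoid bodies with human BRCA1. They are the prolyl 4-hydroxylase subunits P4ha1, P4ha2 and P4hb, the lysyl hydroxylases Plod1, Plod2 and Plod3, the collagen chaperone Serpinh1, the proline isomerase Ppib and the lysyl oxidases Lox and Loxl2. Members were read by every probe set whose platform annotation gives a member as its only gene symbol. That rule found 16 of the 45101 probe sets on the arrays, for 9 of the 10 genes, out of 18193 genes in all. Loxl2 was not analysed here, because both probe sets that name it also name another gene.

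Embryoid bodies form when embryonic stem cells aggregate in suspension and start to differentiate. The bodies were collected on day 7 and carried the R1699Q substitution of human BRCA1 (RQ), the M1652I substitution (MI) or wild-type human BRCA1 (WT). The label of the RQ array gives the substitution as R1669Q, whereas the series design gives R1699Q. The cells of all 3 genotypes were of strain 129S7/SvEv Brd-Hprt b-m2 and grew in the same medium after removal of feeder cells, and the state of the mouse Brca1 gene and the number of clones per genotype are not given in the sources used here. Each genotype was measured on 1 Affymetrix array, so there are no replicates, no difference below has a replicate check or a p-value, and all of them describe these arrays. Values are the deposited log2 signals, on which a difference of 1 is 2-fold, and the number of arrays limits their precision.

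Collagen chains form a stable triple helix only after prolyl 4-hydroxylase has hydroxylated many of their prolines, and cells retain chains that lack this change. The enzyme is a tetramer of catalytic alpha subunits and of P4hb, which is also the general protein disulfide isomerase. Lysyl hydroxylases prepare lysines for sugar addition and crosslinks, Serpinh1 binds the folded helix until it leaves the endoplasmic reticulum, and lysyl oxidases start the crosslinks outside the cell. In the early mouse embryo, parietal endoderm makes large amounts of type IV collagen for its basement membrane.

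The arrays were alike in mean signal, at 6.60 on each, while the spread over probe sets was smaller in MI (SD 1.06) than in RQ and WT (SD 1.17 each). Genes with a mean signal of at least 8 had a median difference of -0.28 in MI against WT and of 0.03 in RQ against WT, so bright genes were read somewhat lower in MI as a whole. The 18 hybridization spike probe sets, which are added in fixed amounts, lay below their WT signal, with differences of -1.38 to -0.42 for RQ and -1.48 to -0.36 for MI. The 3′ minus 5′ difference of the Actb control probe sets was 0.52 in RQ, 0.78 in MI and 0.64 in WT. The part of these differences in the results below was not tested.

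Most collagen enzymes were lower in both variants than in WT. Relative to WT, 8 of the 9 measured genes were below 0 in RQ and 8 of 9 in MI, where 48.3% and 40.5% of all genes above the level filter used below were, and Lox was the exception in each. The median difference over the 9 genes was -0.95 in RQ and -0.97 in MI, against -0.003 and 0.06 over all 18193 genes. Both variants are compared with the same WT array, so its own deviations enter both differences. In a bulk sample, fewer cells of a type and less RNA per cell cannot be told apart.

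A gene was counted at 2-fold if the brighter of the arrays compared reached the median of all values (log2 6.31). In RQ against WT, 3 of the 9 reached 2-fold lower (P4ha1, Plod2 and Serpinh1) and 0 were higher, while 1.49% of 12226 genes above the same level were lower and 1.68% were higher. In MI against WT, Ppib joined them, which made 4 of the 9 genes lower and 0 higher, against 2.44% and 0.516% of 12786 genes. The MI count was 3 members after the arrays were quantile-normalized again (1.54% of genes) or corrected for level by lowess (1.70%), and 5 after they were centred on their medians (3.05%). The RQ count was 2 when all probe sets of a gene were averaged (1.27%). Since 6 of the members were bright, the shares among genes with a mean of at least 8 are also given: 3 of these 6 members were lower in RQ and 4 of 6 in MI, against 4.01% and 7.95% of 2642 genes. Of the 9 genes, 8 passed the level in RQ against WT, and Lox passed it against WT only through its MI signal.

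**Figure D1:**
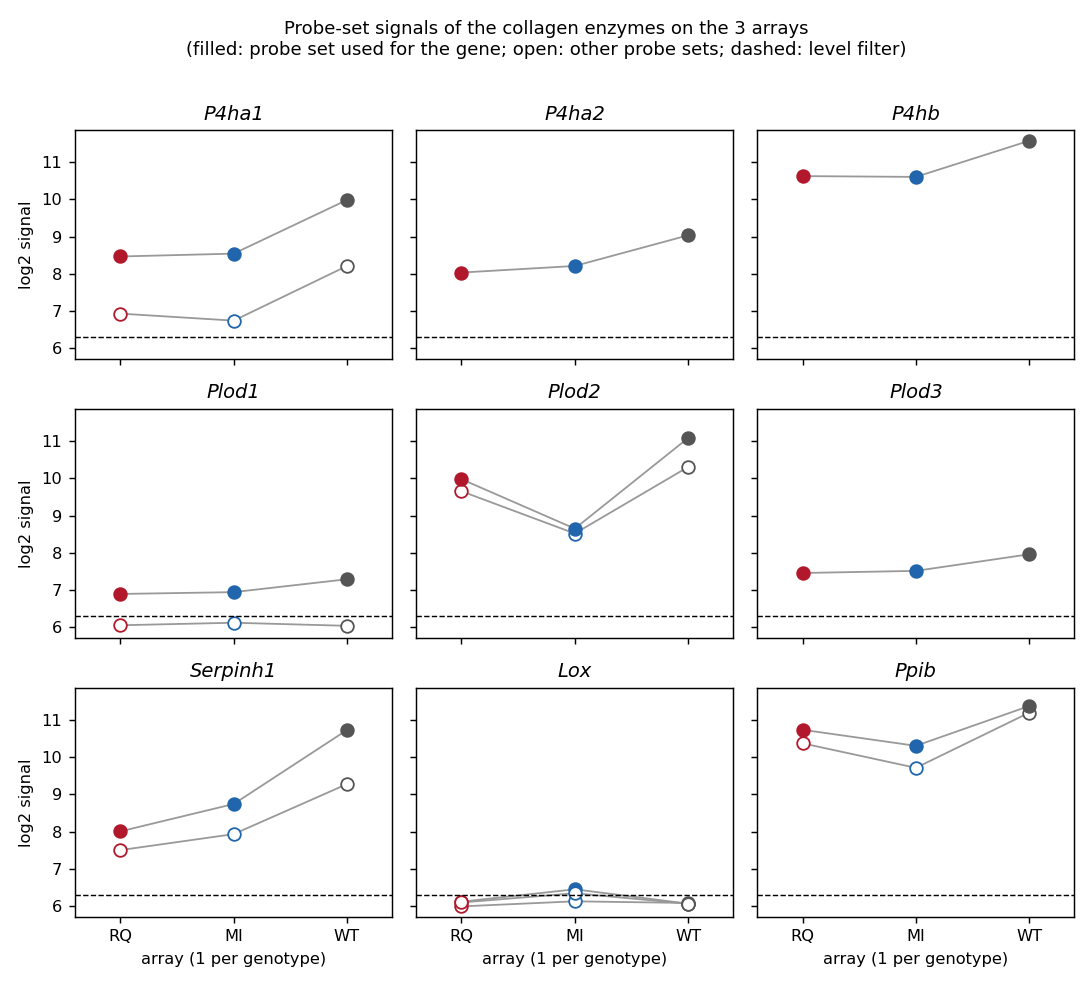
Log2 signal (y axis) of each member probe set on the RQ, MI and WT arrays (x axis), with lines joining the values of 1 probe set; filled points are the probe set used for the gene and the dashed line is the level filter of 6.31. In the panels of P4ha1, P4ha2, P4hb, Plod2, Serpinh1 and Ppib the WT point is the highest for every probe set, and the Lox points lie at the filter.

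Promoter windows of the members are shown for P4ha1, Serpinh1 and Ppib, the genes at least 2-fold lower in at least 1 variant for which RefSeq windows were at hand. A window holds 250 bases before and 50 after the start of the gene, on the gene's strand of assembly GRCm38.p6. The windows lie at chr10:59323046-59323345 (plus strand) for P4ha1, chr7:99353190-99353489 (minus strand) for Serpinh1 and chr9:66059919-66060218 (plus strand) for Ppib. Capitals mark ACGTG or GCGTG on either strand, the core letters that hypoxia-inducible factors bind.
P4ha1: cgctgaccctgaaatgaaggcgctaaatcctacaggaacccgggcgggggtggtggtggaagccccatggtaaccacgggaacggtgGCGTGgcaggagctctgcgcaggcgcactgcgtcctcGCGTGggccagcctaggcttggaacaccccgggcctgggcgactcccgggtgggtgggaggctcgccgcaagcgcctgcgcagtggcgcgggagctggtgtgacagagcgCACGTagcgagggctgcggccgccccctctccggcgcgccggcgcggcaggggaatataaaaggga
Serpinh1: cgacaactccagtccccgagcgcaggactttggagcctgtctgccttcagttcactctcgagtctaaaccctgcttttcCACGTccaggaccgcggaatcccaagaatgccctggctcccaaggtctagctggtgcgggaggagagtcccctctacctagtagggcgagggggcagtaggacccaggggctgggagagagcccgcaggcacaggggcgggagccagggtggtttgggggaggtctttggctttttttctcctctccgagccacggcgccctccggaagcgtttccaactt
Ppib: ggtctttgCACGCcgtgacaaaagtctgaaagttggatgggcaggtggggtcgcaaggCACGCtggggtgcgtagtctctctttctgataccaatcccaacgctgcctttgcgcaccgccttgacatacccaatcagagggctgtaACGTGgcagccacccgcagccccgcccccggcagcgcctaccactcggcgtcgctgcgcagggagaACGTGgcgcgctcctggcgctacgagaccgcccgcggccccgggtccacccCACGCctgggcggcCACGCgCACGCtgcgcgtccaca
These letters occurred 3 times in the P4ha1 window, 1 time in that of Serpinh1 and 7 times in that of Ppib, with no overlaps. All 7 members whose window was used here held at least 1 such core, as did 43.8% of 32851 windows of all genes. At least 3 were held by 8.93% of all windows. Member windows on 1 chromosome were left out, while the shares over all genes had no such limit. The heat shock element (0.603% of all windows), the ER stress element (0.119%) and the GATA letters AGATAA or TGATAA (18.6%), each searched on both strands, had no match in the 7 windows. A match is a run of letters and not a measured binding site, and no match says nothing of the factor.

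Serpinh1, the chaperone that binds only collagens, had the lowest RQ-minus-WT value of the members. Its brighter probe set read 8.01 in RQ and 8.74 in MI, against 10.73 in WT. Its other probe set, which can match several transcripts, read 7.51 in RQ and 7.94 in MI, against 9.28 in WT. Both probe sets thus gave the same order, with RQ lowest and WT highest. The difference was -2.72 in RQ (6.59-fold lower), which was number 17 from the lowest of 12226 genes. In MI it was -1.99 (3.96-fold lower), number 42 from the lowest of 12786. The other probe set gave -1.77 in RQ and -1.34 in MI. RQ was also lower than MI, by -0.73 and -0.43 for the 2 probe sets, short of 2-fold, and only 1.04% of genes had a lower RQ-minus-MI value than the brighter one. The window printed above for Serpinh1 holds a single core.

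P4ha1, a widely expressed catalytic subunit of prolyl 4-hydroxylase, was lower by similar amounts in both variants in the deposited values. Its brighter probe set read 8.47 in RQ and 8.54 in MI, against 9.98 in WT. The dimmer one read 6.93 in RQ and 6.75 in MI, against 8.21 in WT. No signal of either variant came near that of WT on the same probe set. The differences were -1.52 and -1.28 in RQ and -1.44 and -1.47 in MI, and RQ minus MI was -0.08 and 0.19. P4ha1 is also a known target of the hypoxia response.

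P4ha2, another catalytic subunit, is enriched in cells such as chondrocytes and endothelium. Its only probe set read 8.04 in RQ and 8.21 in MI, against 9.04 in WT. The difference was -0.9986 in RQ, just short of 2-fold, and -0.82 in MI. With a correction for level (lowess) the RQ difference was -1.02, past the limit, and with the arrays quantile-normalized again it was -1.003. P4ha2 thus sat at the limit in RQ, and these scalings give 4 members at least 2-fold lower, against 1.51% (lowess) and 1.42% (quantile) of all genes.

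P4hb, the shared beta subunit, read 10.62 in RQ and 10.60 in MI, against 11.57 in WT, on 1 probe set. Its difference was -0.95 in RQ and -0.97 in MI, close to that of P4ha2 in RQ. Centring the arrays on their medians moved the MI value to -1.03, past 2-fold, while the lowess correction moved it to -0.54. The catalytic subunit P4ha3, listed apart from the members, was below the level filter on the 3 arrays, at -0.18 in RQ and 0.04 in MI. P4ha1, P4ha2 and P4hb were each lower than WT on both variant arrays. In the deposited values, RQ and MI of each lay within 0.2 of each other. After quantile normalization, RQ minus MI was -0.42 for P4ha1, -0.46 for P4ha2 and -0.37 for P4hb. With the lowess correction it was -0.31, -0.35 and -0.33.

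Plod2, the lysyl hydroxylase that acts on the ends of collagen chains in human cells and sets their crosslinks, separated the variants. Its brighter probe set read 9.98 in RQ and 8.65 in MI, against 11.08 in WT. Its dimmer probe set read 9.65 in RQ and 8.52 in MI, against 10.30 in WT. The order was the same on both, with MI lowest and RQ between MI and WT. In MI the differences were -2.43 (5.39-fold lower, number 23 from the lowest of 12786 genes) and -1.78. In RQ they were -1.10 and -0.65, and the mean over both probe sets (-0.88) was short of 2-fold.

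Plod1 and Plod3, the lysyl hydroxylases that act on the helix, differed less. Plod3, which also adds sugars to hydroxylysine and is needed for type IV collagen assembly in mice, read 7.46 in RQ and 7.52 in MI, against 7.96 in WT. Plod1 read 6.90 in RQ and 6.94 in MI, against 7.29 in WT. Their differences of -0.50 and -0.40 in RQ and of -0.44 and -0.35 in MI stayed short of 1.5-fold. The other Plod1 probe set lay below the level filter on the 3 arrays, at 6.06 in RQ, 6.12 in MI and 6.04 in WT. The values of -0.35 for Plod1, -2.43 for Plod2 and -0.44 for Plod3 in MI put Plod2 apart from its paralogs, whereas in RQ it was at -1.10 beside -0.40 and -0.50.

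Ppib, cyclophilin B, turns proline bonds in many secreted proteins and works with prolyl 3-hydroxylase on collagen. Its brighter probe set read 10.74 in RQ and 10.30 in MI, against 11.37 in WT. The other, which can match several transcripts, read 10.37 in RQ and 9.71 in MI, against 11.19 in WT. As with Plod2, MI was the lowest array on both. The differences were -1.07 and -1.48 in MI and -0.64 and -0.82 in RQ. The MI value of the brighter probe set dropped short of 2-fold after quantile normalization (-0.64) and after the lowess correction (-0.66).

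Lox, the extracellular enzyme that oxidizes lysines of collagen and elastin, was near background. Its 3 probe sets read 6.00 to 6.12 in RQ, 6.13 to 6.45 in MI and 6.07 to 6.09 in WT. Only the MI array put any of them above the level filter, for 2 of the 3. The differences against WT were -0.09 to 0.05 in RQ and 0.04 to 0.39 in MI, and signals this low compress any difference.

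Counted by probe set, 5 of the 16 reached 2-fold lower in RQ and 8 of 16 in MI, against 1.74% and 2.61% of all single-symbol probe sets above the level filter, and 0 were higher. These probe sets belong to the same genes as above and are not independent of each other.

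**Figure D2:**
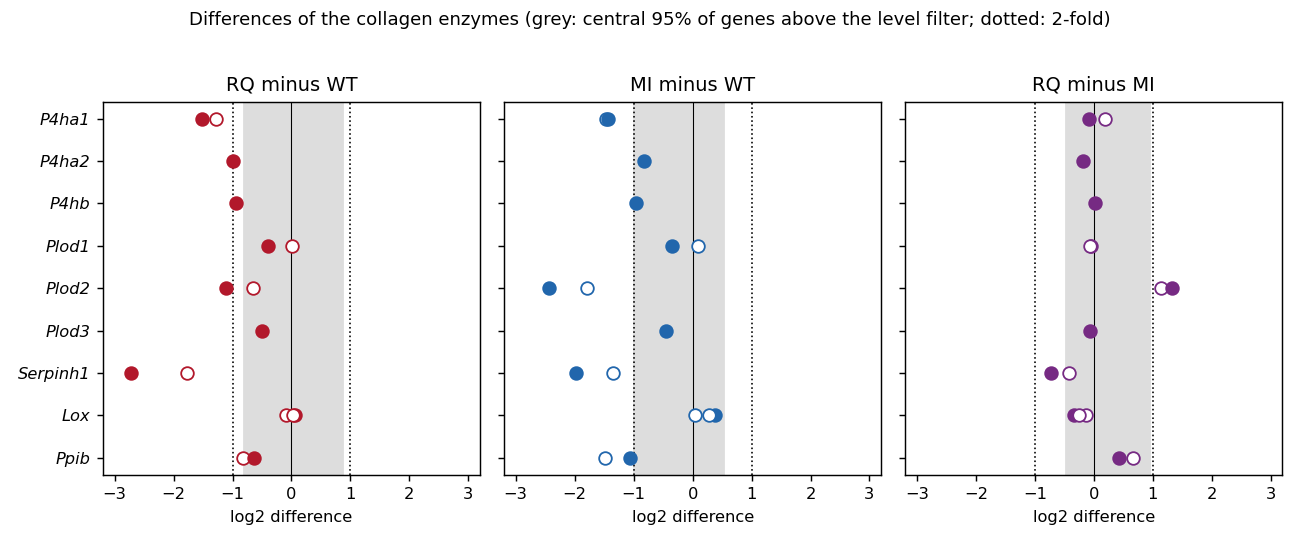
Log2 difference (x axis) of each member probe set for RQ minus WT, MI minus WT and RQ minus MI, with genes on the y axis; filled points are the probe set used for the gene, grey is the central 95% of genes above the level filter and dotted lines are 2-fold. Serpinh1 lies farthest left in RQ minus WT (-2.72), Plod2 farthest left in MI minus WT (-2.43) and farthest right in RQ minus MI (1.33).

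The direct comparison of RQ with MI does not use the WT array. Plod2 was 2.51-fold higher in RQ than in MI (difference 1.33, and 1.13 on its other probe set), and 99.4% of genes had a lower value. It was the only member of the 9 past 2-fold, and 0 were 2-fold lower, against 1.98% of 12800 genes higher and 0.508% lower. With the arrays quantile-normalized again, the Plod2 difference was 0.98, short of 2-fold, while that of Serpinh1 was -1.07, past 2-fold on the lower side, and 116 of 12579 genes were higher and 106 lower. Ppib was at 0.43 and 0.66 on its probe sets, Lox at -0.33 to -0.14, and P4ha1, P4ha2, P4hb, Plod1 and Plod3 at -0.18 to 0.02 on the probe set used. The median over the 9 genes was -0.06, as it was over all 18193 genes. Genes with a mean signal of at least 8, as 6 of the members had, were at a median of 0.33. The Ppib difference of 0.43 was 0.07 after quantile normalization and 0.08 after the lowess correction.

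Some other genes of collagen modification were also lower in the variants, while others lay near or above WT. Of 17 listed genes, 16 were measured, and 10 passed the level filter in each comparison with WT. Of these 10, 1 was 2-fold lower in RQ and 2 in MI, with 0 higher in either. The shares of all genes above the filter that were lower were 1.49% and 2.44%. In MI, 9 of the 16 were above 0, and in RQ 7 were, genes below the filter included. Fkbp9, a proline isomerase of the endoplasmic reticulum, read 8.70 in RQ and 8.62 in MI, against 10.03 in WT, and was lower in both (-1.33 and -1.42; -0.93 and -0.88 on its other probe set). Crtap, the cartilage-associated protein that forms a complex with prolyl 3-hydroxylase and Ppib, was lower in MI (-1.06) and at -0.87 in RQ. Colgalt1, which adds galactose to hydroxylysine, was at -0.61 in RQ and -0.75 in MI. Pxdn, the peroxidase that crosslinks type IV collagen, was at -0.69 in RQ and -0.46 in MI and passed the level filter through WT alone. Loxl1, another lysyl oxidase, was at 0.30 in RQ and 0.49 in MI, Tgm2, a transglutaminase that crosslinks proteins, at 0.13 and 0.46, and Tmem38b, an ion channel of the endoplasmic reticulum, at 0.16 and 0.34, named after their values were seen. The list's median over all 16 was -0.13 in RQ and 0.05 in MI. It includes the genes below the filter, whose values lie near background, so it is not a like comparison with the members.

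The median of the procollagen export and processing genes lay near WT in both variants. Of 15 listed, 13 were measured, and 10 passed the level filter in each comparison with WT. Of these 10, 0 were past 2-fold against WT in either variant on the probe set used. Of all genes above the filter, 1.49% were lower and 1.68% higher in RQ, and 2.44% and 0.516% in MI. A count of 0 in 10 is near those shares. The median of all 13 was 0.0026 in RQ and 0.07 in MI. Sec23a, a coat protein of export vesicles, was at -0.14 in RQ and -0.70 in MI, Sec31a at 0.31 and -0.45, and Sec13 at 0.37 and -0.0004. Pcolce, an enhancer of fibrillar procollagen processing, was at -0.54 in RQ and 0.85 in MI, which made it over 2-fold lower in RQ than in MI (-1.38). Its other probe set was at -0.76 in RQ and at 1.16 in MI, past 2-fold.

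Among the collagen chains, the substrates of the members, Col4a1 and Col4a2 were lower in both variants while most other chains lay close to WT. All 33 listed chains were measured, of which 19 were above the level filter in RQ, 24 in MI and 18 in WT. Chains short of the filter lie near background, where any difference is compressed. Col4a1 read 8.62 in RQ and 8.68 in MI, against 11.46 in WT, and Col4a2 read 6.54 in RQ and 6.70 in MI, against 10.001 in WT. Of 20 chains that passed the filter in RQ against WT, they were the only 2 at least 2-fold lower (-2.84 and -3.46), against 1.49% of all genes. Of 25 in MI against WT, 3 were lower, against 2.44%. These were Col4a1 (-2.78), Col4a2 (-3.30) and Col18a1, another basement membrane collagen (-1.65). Col18a1 was at -0.83 in RQ. The other type IV chains, named after their values were seen, differed little: Col4a3, Col4a4, Col4a5 and Col4a6 lay between -0.14 and -0.03 in RQ and between 0.04 and 0.22 in MI, at signals of 6.07 to 6.90. The fibrillar chain Col1a2 was higher in MI alone, where it read 8.03, against 6.39 in RQ and 6.39 in WT. Its other probe sets differed from WT by 0.49 and -0.07 in MI. The list's median was -0.04 in RQ and 0.18 in MI.

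General chaperones of the endoplasmic reticulum lay closer to WT than the collagen enzymes. Of 18 listed, 17 were measured and above the level filter on every array, and 0 were past 2-fold in either variant. Of all genes above the filter, 1.49% were lower and 1.68% higher in RQ, and 2.44% and 0.516% in MI. A count of 0 in 17 is near those shares. The median was -0.21 in RQ and -0.27 in MI, beside 0.03 and -0.28 over genes with a mean signal of at least 8. In each variant 13 of 17 were below 0, as were 48.3% of all genes above the filter in RQ and 40.5% in MI. Pdia3, a disulfide isomerase of glycoproteins, was at -0.48 in RQ and -0.70 in MI, and Calr, its partner lectin chaperone, was at -0.42 and -0.72. Pdia6 was at -0.19 and -0.61, and Manf at -0.09 and -0.67.

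P4ha1, P4ha2, Plod2 and Lox are known targets of hypoxia-inducible factors, and the other listed targets were mixed. Of 18 listed, 3 reached 2-fold higher in RQ and 0 lower, against 1.68% and 1.49% of all genes above the level filter. In MI, 0 were higher and 2 lower, against 0.516% and 2.44%. The list's medians were -0.06 in RQ and -0.35 in MI, beside 0.03 and -0.28 over genes with a mean signal of at least 8. Pdk1, which limits pyruvate oxidation, was at 1.30 in RQ and -0.65 in MI, and the oxygen sensor Egln3 at 1.28 and -0.02. The third gene higher in RQ was hexokinase Hk2 (1.08), named after its value was seen. Ndrg1 (-0.97 in RQ and -1.40 in MI) and Ddit4 (-0.40 and -1.25) were the genes lower in MI. Hk2 was at 0.23 in MI. In RQ, 10 of the 18 were below 0, such as Ankrd37 (-0.52) and Aldoa (-0.50), also named after their values were seen, and in MI 15 were. The part of the hypoxia response in the values of P4ha1 and Plod2 was not tested.

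**Figure D3:**
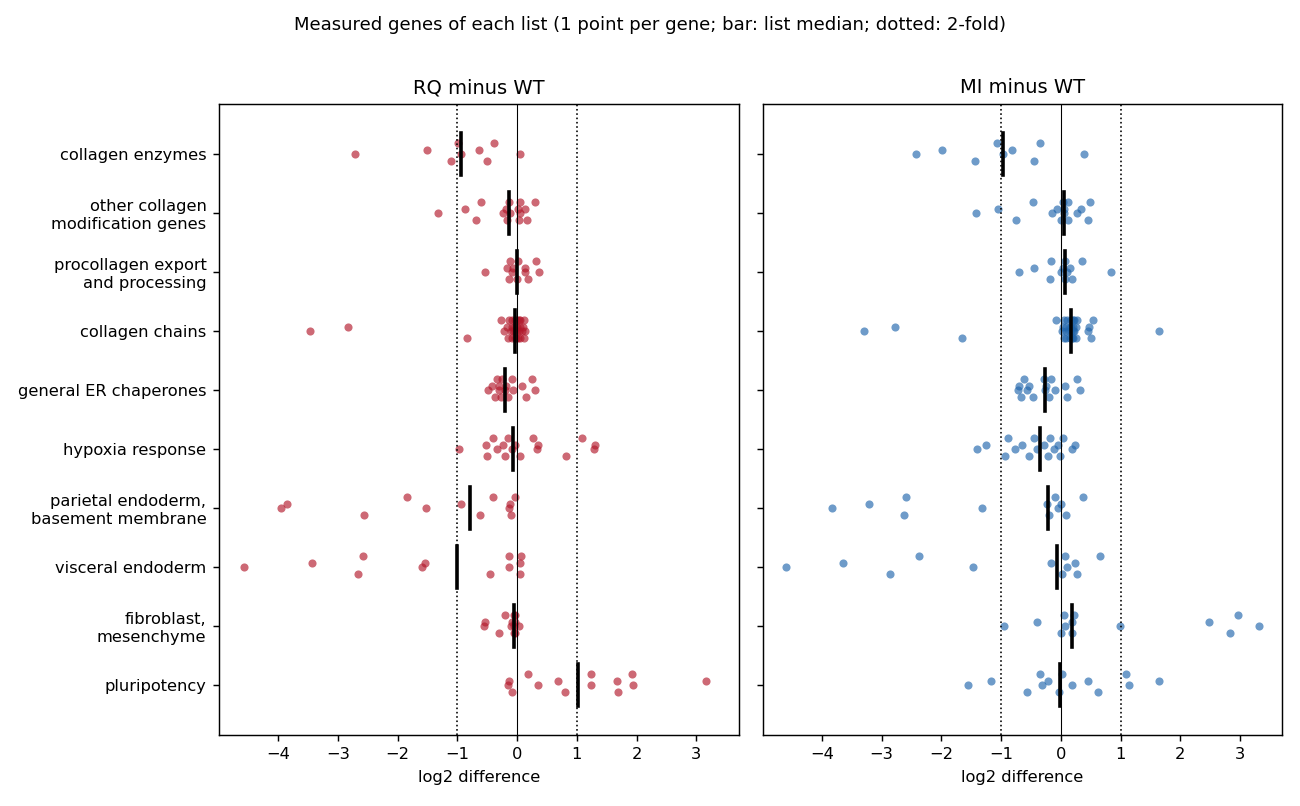
Log2 difference from WT (x axis) of each measured gene in the lists named on the y axis, for RQ (left) and MI (right); each point is 1 gene, black bars are list medians and dotted lines are 2-fold. The collagen enzymes have medians of -0.95 and -0.97, while those of the general ER chaperones are -0.21 and -0.27.

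Some markers of extraembryonic endoderm, which secretes type IV collagen, were lower in both variants, and others lay close to WT. Of 12 parietal endoderm and basement membrane genes, 5 were past 2-fold on the lower side in RQ and 5 in MI, against 1.49% and 2.44% of all genes, with medians of -0.79 and -0.22, and the list's mean log2 signal was 6.95 in RQ and 7.15 in MI, against 8.29 in WT. These were Lama1 (-3.95 in RQ and -3.83 in MI), Sparc (-3.85 and -3.21), Lamb1 (-2.57 and -2.62), Lamc1 (-1.85 and -2.58) and, named after its values were seen, Hspg2 (-1.52 and -1.32). Of the 7 others, Thbd and Stra6 were below the level filter on the 3 arrays, while Nid1 (-0.94 in RQ and -0.20 in MI), Plat (-0.63 and -0.24), Snai1 (-0.41 and -0.10), Fst (-0.13 and 0.0040) and Pdgfra (-0.03 and 0.38), named here to account for the list, passed it and stayed short of 2-fold. Of 12 visceral endoderm genes, 6 were 2-fold lower in RQ and 5 in MI, against 1.49% and 2.44% of all genes. Among them were Cubn (-4.58 and -4.60), Apoe (-2.67 and -3.65), Dab2 (-3.44 and -2.86) and Lrp2 (-2.59 and -2.37). The visceral list's mean was 6.59 in RQ and 6.86 in MI, against 8.003 in WT. Its median was -0.9993 in RQ and -0.07 in MI, where 6 genes were below and 6 above 0, such as Rhox5 (-1.54 in RQ and 0.66 in MI), Afp (-0.14 and 0.24) and Apob (0.07 and 0.27), named after their values were seen. Some other probe sets of these genes differed less, such as that of Lamc1, at -0.40 in RQ and -0.36 in MI. A Sparc probe set was at -0.25 and -0.27, beside another at -4.01 and -3.38. Dab2 had probe sets at -0.85 and -0.64 in RQ and -0.69 and -0.49 in MI, beside another at -2.15 and -1.90. Cubn, Lrp2, Amn and Lama1 were below the level filter in both variants and passed it through WT alone. Dab2 was also below it in RQ, at 6.25. These differences are read against background and cannot be ranked, and the 2-fold counts of the lists include them. The part of these cells in the values of the collagen enzymes was not tested.

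Of the endoderm transcription factors, 5 of 6 were measured, and 2 were above the filter on each array. Gata6 was at -0.09 in RQ and 0.04 in MI and Sox17 at -0.26 and 0.01 on the probe sets used. Their other probe sets differed, at -1.06 and -0.70 in RQ and -1.08 and -0.55 in MI for Gata6 and at -1.43 and -1.47 for Sox17.

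Some fibroblast and mesenchyme markers were higher in MI. Of 14 listed genes, 13 were measured, of which 4 were at least 2-fold higher in MI and 0 in RQ, against 0.516% and 1.68% of all genes, and the list's mean was 6.77 in RQ and 7.85 in MI, against 6.93 in WT. They were S100a4 (3.31 in MI and -0.09 in RQ), Dcn (2.96 and -0.10), Vim (2.83 and -0.30) and Bgn (2.48 and -0.54). The other Bgn probe sets were at 0.59 and 0.98 in MI, short of 2-fold, while those of Vim were at 2.52 and 3.67. The other Dcn probe set was below the level filter. Lum and Twist1 lay below the level filter on the 3 arrays, and Postn was at 6.57 in MI and 6.50 in WT. The 2 markers below 0 in MI, named after their values were seen, were Fstl1 (-0.94 in MI and -0.55 in RQ) and Fn1 (-0.40 and -0.20), and the list's median was 0.19 in MI and -0.06 in RQ. The part of such cells in the MI values of Col1a2, Pcolce and the collagen enzymes was not tested. Of the 14 pluripotency markers, 7 were at least 2-fold higher in RQ and 0 lower, against 1.68% and 1.49% of all genes. In MI, 3 were higher and 2 lower, against 0.516% and 2.44%. The mean of the 14 markers was 10.62 in RQ and 9.66 in MI, against 9.59 in WT. Dppa2 (3.17 in RQ and 1.64 in MI), Zfp42 (1.93 and 0.63), Nr0b1 (1.92 and -0.03) and Klf2 (1.68 and -0.56) led them in RQ. Nr0b1 passed the level filter through RQ alone. In RQ 3 of the 14 were below 0, and in MI 7 were. The 3 in RQ, named after their values were seen, were Pou5f1 (-0.14 in RQ and -1.17 in MI), Utf1 (-0.09 and -1.56) and Dppa5a (-0.15 and -0.32). Pou5f1 and Utf1 were the genes 2-fold lower in MI.

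Genes with the most similar pair of differences from WT were sought for the 4 members whose arrays spanned at least 1 log2 unit, by Euclidean distance over the RQ and MI differences, which share the WT array. Nearest to Serpinh1 were the linker histone H1f2 (distance 0.21), the ribosomal protein gene Rpl12 (0.35) and the secreted peroxidase Gpx3 (0.35). Nearest to Plod2 were Pcbp4 (0.27), the actin-binding Cotl1 (0.43) and the inflammasome adaptor Pycard (0.48). Nearest to P4ha1 were Niban2 (0.08), the noncoding Malat1 (0.08) and the endocytic receptor subunit Amn (0.08). Amn was below the level filter in RQ (5.35) and MI (5.47), so its distance rests on signals at background. Nearest to Ppib were Grcc10 (0.02), Aldh6a1 (0.04) and Msmo1 (0.05). A likeness over 3 arrays is a description.

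**Figure D4:**
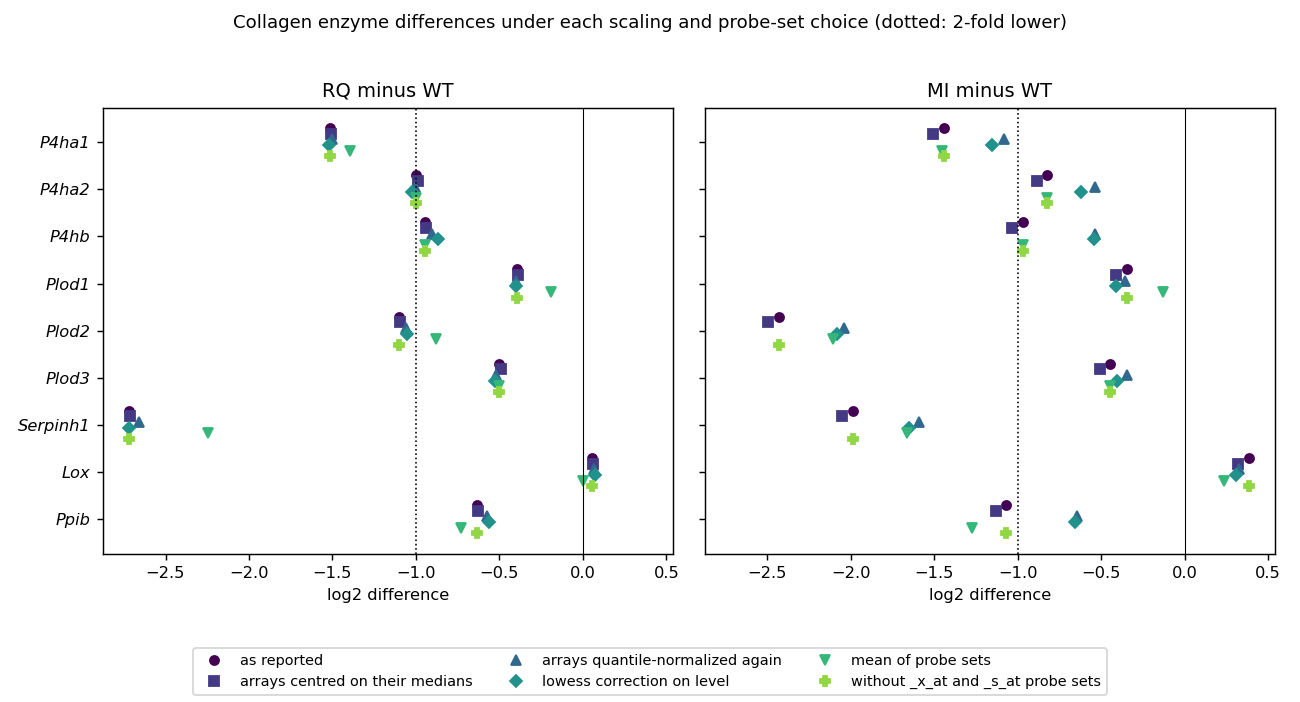
Log2 difference from WT (x axis) of each member (y axis) for RQ (left) and MI (right) under each scaling and choice of probe set, with 1 marker per alternative and the 2-fold limit dotted. Serpinh1 and P4ha1 stay left of the limit in both panels, and the MI values of the brightest genes move right under quantile normalization and the lowess correction.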

How the data were processed

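Total RNA (6 ug per sample, per the labels) was labelled and hybridized to 1 Affymetrix array per genotype. The deposited values are log2 signals per probe set, made with Partek and RMA per the submitters' processing notes, which give neither versions nor the order of steps. Genome build, scanner files and detection calls were not used here. The platform annotation supplied gene names: 34945 probe sets had 1 symbol (controls apart), 932 several and 64 were controls. Entrez identifiers of 34741 matched RefSeq genes of GRCm38.p6, which changed 0 symbols. Promoter sequences are RefSeq's, and 7 of the 10 members had one that was used here.

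Where a gene had several probe sets, the brightest on average was used. Differences of log2 values were counted at 2-fold among genes whose brighter array reached 6.31, the median of all values. Medians of lists use all measured genes without that filter. With 1 array per genotype there is no test and no p-value. Members and lists were chosen with earlier results of these data known. Named are all members, up to 4 genes per list with the largest difference from WT on either variant array among those above the filter, and the 3 nearest genes of each member that spanned at least 1 log2 unit. Others are said to be named after their values were seen, or are given as examples at background. The counting was tested on simulated data. Alternatives were 3 scalings (median centring, quantile normalization, lowess with span 0.3 and 3 iterations), 2 other filters, 2 other choices of probe set and limits of 1.5-fold and 3-fold. Shares among genes at a mean of at least 8 were added after the values were seen. Python 3.11.15, pandas 2.3.3, numpy 2.4.6 and statsmodels 0.14.6 were used.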

Additional observations from a re-analysis of the deposited data

How the results depend on the processing

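Across the 3 scalings and 2 choices of probe set, each of the 45 recomputed gene values moved by less than 1.5-fold in each comparison. None changed sign in MI against WT, 1 did in RQ against WT (Lox, at -0.0018 with the mean of probe sets) and 6 did in RQ against MI: P4hb (0.02 as reported) was at -0.37 after quantile normalization and -0.33 after the lowess correction, and the others, of P4ha1, Plod1 and Plod3, lay between 0.02 and 0.06. The member median ranged from -0.95 to -0.87 in RQ against WT and from -1.03 to -0.54 in MI against WT. In RQ against MI it went between -0.26 and 0.02, so it had no settled sign. The counts followed the limit. At 1.5-fold, 6 members were lower in RQ and 6 in MI, against 4.34% and 8.04% of all genes above the filter, and 2 differed between RQ and MI, where 198 of 12800 genes were lower and 1221 higher. At 3-fold these counts were 1, 2 and 0, against 0.613% and 0.54% of genes, and 20 lower and 29 higher genes. Over all genes above the filter, the 312 lower and 66 higher in MI against WT became 193 and 107 after quantile normalization and 217 and 83 after the lowess correction, and the 65 lower and 253 higher in RQ against MI became 106 and 116 after quantile normalization. The cause was not tested. The level filters changed no member count. Signals near background, such as those of Lox and Plod1, limit what could be read, as no detection calls were used. No paired analysis was possible because each genotype has 1 array.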
